A study of Rattus norvegicus with 8 samples.

Results

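Neuropeptides are signalling molecules that neurons pack into dense-core vesicles beside the classical transmitters, and the genes described here encode such peptides, the granins of their vesicles, and their receptors. The set holds 48 named genes, matched by the gene name that the scanner files give each probe, out of 18803 genes and unnamed probes tested across the whole array. It divides into 20 genes for peptides, granins and a peptide-binding protein, and 28 genes for receptors or receptor partners. Total RNA came from hippocampi of 8 rats, all male Sprague Dawley and 3 months old. The treated group (Y+I) held 4 rats given yohimbine together with imipramine for 7 days, and the vehicle group held 4 rats given vehicle for 7 days. The labels place both groups at 2 hours, and give no dose. Yohimbine is an antagonist of alpha2-adrenoceptors, and imipramine, an antidepressant of the tricyclic class, slows the uptake of serotonin and noradrenaline back into neurons. Rats given either drug alone were not analysed here, so the comparison asks what differed under the combination. Whole hippocampus was extracted, so that a smaller number of cells of one type and less RNA per cell cannot be told apart in any value below.

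Levels are given as normalised log2 signal, which is log2 of an array's processed signal minus the 75th percentile of that array. A level of 0 therefore lies at that percentile and 1 unit is a 2-fold step. Each rat had its own 1-colour array, so n = 4 for each mean, and precision is limited by the number of arrays. Of the spots on an array, 64.4% to 74.8% were well above background in Y+I rats and 76.4% to 79.7% in vehicle rats. The 75th percentile of the processed signal was lowest on the array of Y+I rat 4, at 1045, against 1408 to 2106 on the others. All 8 arrays lay on 1 slide with the groups on different rows, and the row of the slide cannot be told apart from treatment. The spread between rats was wider under Y+I, with a median SD over all features of 0.239 log2 units against 0.134 in vehicle rats. Over the tested members the median SD was 0.341 in Y+I rats and 0.243 in vehicle rats.

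A peptide gene usually encodes a long precursor, which convertases cut inside the vesicle into 1 or several active peptides. Most of the receptors are G protein-coupled receptors on other neurons, where the peptides act slowly and at a distance. In the hippocampus many of the peptide genes are active in sets of GABAergic interneurons, and corticotropin-releasing hormone, somatostatin and opioid peptides have been studied there for their action on excitability, stress and memory.

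The probes behind the results are 60 bases long, and their first 30 bases are printed here in lower case because they fix which transcript each value measures. Positions are those of the whole probe in the files, on rat build rn4. Calca is shown with both of its probes, which read different transcripts of one gene, and Npsr1 with both because they disagreed. The Grp probe lies at chr18:62176219-62176278, the Calca probe for the variants encoding calcitonin gene-related peptide (CGRP) at chr1:172686203-172686262 and that for the calcitonin variant at chr1:172688192-172688251. The Sstr1 probe lies at chr6:78806638-78806697, Ramp1 at chr9:90449978-90450037, Hcrtr1 at chr5:149160752-149160811 and Crhr1 at chr10:93353354-93353413. The brighter Npsr1 probe lies at chr8:23970160-23970219, the other at chr8:23966828-23966887, and Oprl1 at chr3:170873358-170873417. Which part of the transcript a probe covers was not looked up.
Grp: aggaagagctttccagtgaacgctttttcc
Calca CGRP variants: tgtgactcaatggaaccatatgcttaaaga
Calca calcitonin variant: atgggttactttcatgaggcaaaggatggt
Sstr1: atggtcgaatgcactgttgaaaatggtgtt
Ramp1: agactgcacagatgtgtttgtggatgcata
Hcrtr1: acactctccatgcggccgttcggcatggag
Crhr1: agaggacgaggtctccagggtcgtcttcat
Npsr1 brighter probe: gctaacagggcaaatgtgtttaatatattc
Npsr1 other probe: ttagacaacttcaacctccttccagacacc
Oprl1: attgccaaggatgttggccttggttgcaag

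Under Y+I, 2 peptide genes fell (Grp and Calca), 5 receptor genes fell (Sstr1, Ramp1, Crhr1, Npsr1 and Oprl1) and 1 receptor gene, Hcrtr1, rose. Crhr1, Npsr1 and Oprl1 were not well above background in all 4 Y+I rats and did not pass under another background correction. That correction lifts dim signals and so shrinks their fold changes, and a call lost there does not decide whether a dim gene fell. Of the 48 members 41 were bright enough to test, 19 peptide and 22 receptor genes. In the peptide group 0 rose, 2 fell and 17 did not pass an adjusted p of 0.05 in limma, and in the receptor group 1 rose, 5 fell and 16 did not pass. Of all features tested 2.33% were called, 0.739% as higher and 1.6% as lower. At an unadjusted p under 0.05, 2 peptide genes were higher and 4 lower, and 3 receptor genes were higher and 8 lower. That threshold took 15.6% of all features, 6.46% higher and 9.16% lower. The values of the 4 Y+I rats and the 4 vehicle rats did not overlap for 5 peptide genes (2 higher, 3 lower) and 9 receptor genes (2 higher, 7 lower). Such a gap was found in 11.7% of all features, 5.04% higher and 6.65% lower. The median log2 fold change was -0.16 over the tested peptide genes, -0.33 over the tested receptor genes and -0.02 over all features.

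These counts depend on which genes were bright enough to measure. A probe was tested if the scanner software marked it as well above background in all 4 rats of at least 1 group. Of the 41 tested members, 32 had a probe well above background on all 8 arrays (18 peptide and 14 receptor genes). The other 9 were kept through vehicle alone (Trh among the peptides, and Avpr1a, Crhr1, Hcrtr2, Npsr1, Ntsr1, Oprl1, Oprm1 and Trhr among the receptors). A gene kept that way had to be dim on some Y+I array, so the counts and medians above describe the tested genes and support nothing about the set. With normexp, an alternative background correction that lifts dim signals with an offset of 50, the receptor median was 0.04, the peptide median -0.16 and the median of all features 0.09. Then 2 peptide genes (both lower) and 3 receptor genes (Hcrtr1 higher, Ramp1 and Sstr1 lower) passed, where 3.2% of all features did (2.13% higher, 1.07% lower). Among genes well above background on all 8 arrays the same 5 genes passed, of 18 peptide and 14 receptor genes tested, where 2.45% of features passed. Without Y+I rats 2 and 3, whose arrays had the fewest spots above background, Grp, Calca, Sstr1 and Npsr1 passed, where 0.872% of features did. With animal number as a block Grp, Calca, Sstr1, Npsr1 and Oprl1 passed, where 0.766% did, and with no filter on background 4 peptide and 7 receptor genes, where 14.5% did.

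The 33 tested members that did not pass were not all measured equally well. For 24 of them the 95% interval of the fold change lay within 2-fold in either direction, and for 14 within 1.5-fold. For Cartpt, Ntsr1, Trh, Trhr, Adcyap1, Nmb and Cckbr the interval reached beyond 1.5 log2 units. The 7 untested members were Nmu, Calcrl, Galr1, Grpr, Npy2r, Oprk1 and Oxtr, whose probes were well above background on at most 1 Y+I array and at most 3 vehicle arrays. Their levels could not be compared at this brightness.

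**Figure D1:**
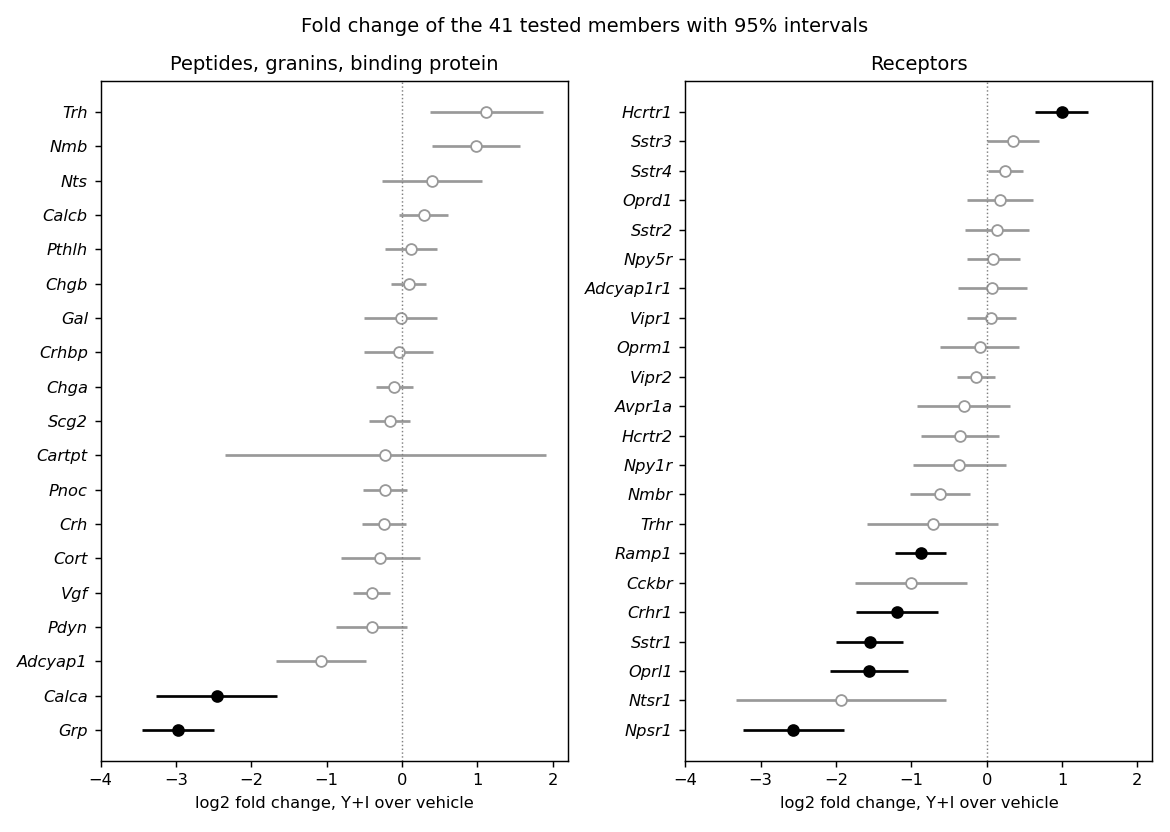
Log2 fold change (Y+I over vehicle, horizontal axis) with its 95% interval for the 19 tested peptide, granin and binding protein genes (left) and the 22 tested receptor genes (right); filled black points passed an adjusted p of 0.05 and open grey points did not. Grp and Calca lie lowest on the left at -2.98 and -2.46, Hcrtr1 is the 1 black point right of 0 at 1.00, and the interval of Cartpt, from -2.35 to 1.91, is the widest of the tested members.

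The bombesin-like peptides are gastrin-releasing peptide (GRP), encoded by Grp, and neuromedin B, encoded by Nmb, which act mainly on the receptors encoded by Grpr and Nmbr. Grp had levels of -1.38, -0.96, -0.57 and -1.30 in Y+I rats 1 to 4, against 2.04, 1.48, 2.05 and 2.12 in vehicle rats 1 to 4. The lowest vehicle rat thus lay more than 2 units above the highest Y+I rat, and the gap was far wider than the spread inside either group. Grp fell by 2.98 ± 0.21 log2 units (SE), or 7.87-fold, with an adjusted p of 0.00139, and passed in each of the 8 fits that left out 1 rat. The level of Nmb was 1.30, 1.33, 1.13 and 1.54 in Y+I rats, against 0.76, 0.83, -0.39 and 0.18 in vehicle rats. The groups did not overlap in Nmb, with vehicle rats spread over more than 1 unit, and its log2 fold change of 0.98 ± 0.26 did not pass (adjusted p = 0.1). The receptor gene Nmbr had -5.26, -4.88, -5.20 and -4.72 in Y+I rats, against -4.05, -4.31, -4.53 and -4.70 in vehicle rats. Its groups were separated by a narrow margin between Y+I rat 4 and vehicle rat 4, and the log2 fold change of -0.62 ± 0.17 did not pass either (adjusted p = 0.121, and -0.06 with normexp). Grpr was not well above background on any of the 8 arrays. The ligand Grp therefore fell where the level of its own receptor gene was not measurable, and the related ligand Nmb had higher values that did not pass.

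The calcitonin gene-related family shares 1 gene, Calca, between the hormone calcitonin and the neuropeptide CGRP, made by alternative splicing. A related gene, Calcb, encodes a second CGRP. The CGRP receptor joins the receptor protein encoded by Calcrl to the accessory protein encoded by Ramp1. The CGRP probe of Calca read -5.33, -3.70, -4.64 and -4.70 in Y+I rats, against -2.59, -1.91, -1.53 and -2.50 in vehicle rats. The 2 groups did not overlap, with Y+I rat 1 lowest and Y+I rat 2 nearest to the vehicle rats. The fall of 2.46 ± 0.35 log2 units (5.50-fold, adjusted p = 0.0132) passed in all 8 fits without 1 rat. With normexp the log2 fold change was -1.61 (adjusted p = 0.00559). The calcitonin probe of the same gene was not well above background on any of the 8 arrays, so the fall was measured in the CGRP transcripts alone. Calcb had -2.52, -2.53, -2.85 and -2.16 in Y+I rats, against -2.88, -2.80, -2.67 and -2.86 in vehicle rats. These values overlapped and did not pass (log2 fold change 0.29 ± 0.14, 95% interval -0.04 to 0.62, adjusted p = 0.386). The difference between the fold changes of Calca and Calcb was not itself tested.

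Ramp1 had levels of 1.98, 1.91, 1.54 and 1.52 in Y+I rats, against 2.45, 2.46, 2.89 and 2.65 in vehicle rats. All 4 Y+I rats lay below all 4 vehicle rats, with Y+I rats 1 and 2 closest to them. Ramp1 fell by 0.88 ± 0.15 log2 units (1.84-fold, adjusted p = 0.0263). Its other probe fell too, by 0.71, when each probe was tested on its own (adjusted p = 0.0399). The Ramp1 call rests on all the rats, since it passed in 2 of the 8 fits without 1 rat and reached an adjusted p of 0.0909 without vehicle rat 4. Calcrl was not well above background on any array. The CGRP transcripts of Calca and the messenger RNA of Ramp1 were thus both lower in Y+I rats. The second CGRP gene, Calcb, did not pass, and the level of the receptor gene Calcrl was not measurable.

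Somatostatin and cortistatin, the product of Cort, act on a shared family of receptors, of which 4 genes are members here. Sstr1 had -1.07, -0.98, -1.50 and -0.65 in Y+I rats, against 0.53, 0.13, 0.73 and 0.63 in vehicle rats. The groups were well apart, and every Y+I rat was below the lowest vehicle rat by more than 0.7 units. Sstr1 fell by 1.55 ± 0.20 log2 units (2.94-fold, adjusted p = 0.00874), and passed in all 8 fits without 1 rat. None of the other somatostatin receptor genes here passed. Sstr2 had 1.54, 1.67, 1.87 and 2.01 in Y+I rats, against 2.15, 1.65, 1.37 and 1.40 in vehicle rats, and the groups overlapped (log2 fold change 0.13, 95% interval -0.29 to 0.56, adjusted p = 0.79). Sstr3 had 1.04, 1.68, 1.15 and 1.44 in Y+I rats, against 0.83, 1.06, 1.12 and 0.93 in vehicle rats (log2 fold change 0.34, adjusted p = 0.32). Sstr4 had -0.48, -0.38, -0.48 and -0.41 in Y+I rats, against -0.81, -0.80, -0.49 and -0.63 in vehicle rats. Its groups were just separated, with vehicle rat 3 nearly level with the lowest Y+I rats (log2 fold change 0.24, adjusted p = 0.287). Cort had -0.71, 0.26, -0.04 and -0.65 in Y+I rats, against 0.32, -0.24, -0.12 and 0.04 in vehicle rats. Y+I rats 2 and 3 lay among the vehicle rats, and Y+I rats 1 and 4 below them (log2 fold change -0.29, adjusted p = 0.609). The intervals of Sstr2, Sstr3 and Sstr4 all lay above that of Sstr1, whose upper end was -1.11, and the difference between these genes was not itself tested.

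The orexin receptors answer peptides made in the lateral hypothalamus that promote wakefulness, and Hcrtr1 encodes the type that prefers orexin A. Hcrtr1 had -2.23, -2.65, -2.37 and -2.58 in Y+I rats, against -3.70, -3.09, -3.56 and -3.47 in vehicle rats. The highest vehicle rat, rat 2, stayed below the lowest Y+I rat. Hcrtr1 rose by 1.00 ± 0.15 log2 units (2.00-fold, adjusted p = 0.0168). It passed in 6 of the 8 fits without 1 rat, and not without vehicle rat 3 or vehicle rat 4 (adjusted p up to 0.0651). Hcrtr2, the receptor gene for both orexins, had -6.36, -5.78, -6.35 and -5.44 in Y+I rats, against -5.27, -5.73, -5.86 and -5.67 in vehicle rats. It was well above background on 1 Y+I array, its groups overlapped, and it did not pass (log2 fold change -0.35, adjusted p = 0.506).

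Corticotropin-releasing hormone (CRH), encoded by Crh, coordinates the stress response, acts mainly through the receptor encoded by Crhr1, and is bound and held back by the protein from Crhbp. Crhr1 was dim, with -5.74, -6.58, -5.80 and -5.94 in Y+I rats, against -4.23, -4.99, -5.11 and -4.98 in vehicle rats. It was well above background in 2 Y+I rats and in all 4 vehicle rats. The groups did not overlap, and vehicle rat 1 stood above the other vehicle rats. Crhr1 fell by 1.19 ± 0.24 log2 units (2.28-fold, adjusted p = 0.0417). That call was lost without any 1 of the 8 rats (adjusted p = 0.0622 to 0.107) and with normexp, where the log2 fold change was -0.16 (adjusted p = 0.483). Crh had -2.40, -2.01, -1.91 and -1.86 in Y+I rats, against -1.72, -1.92, -1.80 and -1.79 in vehicle rats. On this probe the lower values under Y+I came mostly from rat 1, and the gene did not pass (log2 fold change -0.24, adjusted p = 0.429). On a second, dimmer Crh probe all 4 Y+I rats (-5.12 to -4.82) lay below all 4 vehicle rats (-4.76 to -4.58). That probe gave a log2 fold change of -0.31 and did not pass on its own (adjusted p = 0.197). Crhbp had -1.60, -1.91, -0.97 and -1.59 in Y+I rats, against -1.75, -1.58, -1.25 and -1.31 in vehicle rats (log2 fold change -0.05, 95% interval -0.51 to 0.42). Of the 3 genes of this system the receptor gene alone passed, and it did so in 0 of the 8 fits without 1 rat.

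Npsr1 encodes the receptor for neuropeptide S, a brainstem peptide tied to arousal and anxiety in rodents, and Oprl1 encodes the receptor for nociceptin, whose precursor is the product of Pnoc. The brighter Npsr1 probe read -8.37, -7.67, -7.36 and -8.85 in Y+I rats, against -5.31, -5.60, -5.64 and -5.44 in vehicle rats. It was well above background on no Y+I array and on all 4 vehicle arrays, and all 4 Y+I values were substitutes set by the scanner software. For a fold, each Y+I array was given the higher of the probe's own signal and the array's lowest signal counted as well above background. Npsr1 was then 5.91-fold lower in Y+I rats. That fold belongs to the processed signal and is not a lower limit of the difference. The adjusted p of 0.00635 is that of limma on the values as read (log2 fold change -2.57). Since the Y+I values were substitutes, it does not measure a spread of expression between Y+I rats. The other Npsr1 probe read -7.07, -7.68, -7.35 and -6.79 in Y+I rats, against -6.94, -6.96, -7.66 and -6.94 in vehicle rats, overlapping fully (log2 fold change -0.10, probe-level adjusted p = 0.889). With normexp the brighter probe gave -0.26 (adjusted p = 0.27). The call of Npsr1 therefore rests on 1 dim probe.

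Oprl1 had -6.40, -7.60, -7.32 and -7.20 in Y+I rats, against -5.53, -5.63, -5.49 and -5.64 in vehicle rats. Again 0 of the 4 Y+I arrays were well above background, and the vehicle rats lay within 0.2 units of each other. Computed in the same way Oprl1 was 2.94-fold lower, again with no lower limit, since Y+I rat 1 was not well above background at -6.40. In limma the values as read had an adjusted p of 0.0135, with substitute values on 2 Y+I arrays. Oprl1 passed in all 8 fits without 1 rat, but these fits share the near-background Y+I values and are no separate support. With normexp the log2 fold change was -0.08 (adjusted p = 0.749). A second Oprl1 probe gave -0.88 and did not pass on its own (adjusted p = 0.095). Pnoc had 0.50, 0.52, 0.18 and 0.28 in Y+I rats, against 0.82, 0.66, 0.48 and 0.41 in vehicle rats. These overlapped, and the log2 fold change of -0.22 did not pass (adjusted p = 0.451).

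**Figure D2:**
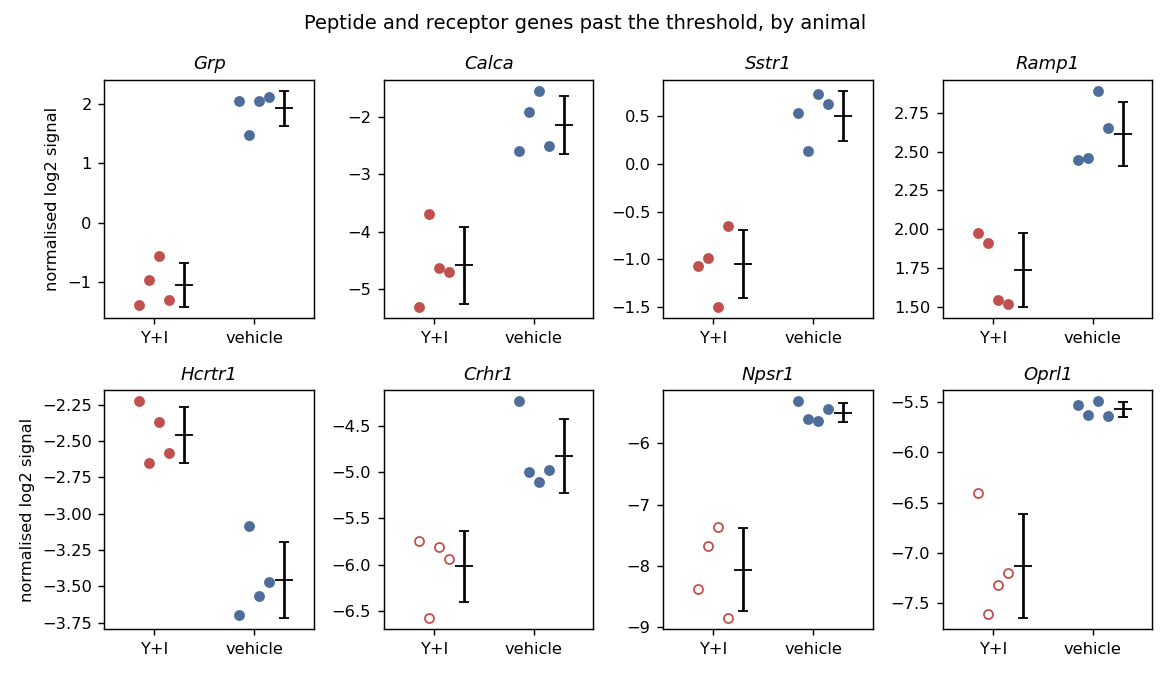
Normalised log2 signal (vertical axis, a separate scale in each panel) of the 8 members past the threshold, by rat, with Y+I left and vehicle right; the bar beside each group is its mean ± SD (n = 4), and open circles mark groups not well above background on all 4 arrays. The groups do not overlap in any of the 8 panels, Hcrtr1 is the panel where Y+I is higher, and Crhr1, Npsr1 and Oprl1 carry the open circles.

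Among the members that passed, the 3 dim receptor genes moved most between background treatments. Crhr1, Npsr1 and Oprl1 kept their sign with normexp but moved from -1.19, -2.57 and -1.56 to -0.16, -0.26 and -0.08. The 5 members that passed and were well above background on all 8 arrays moved less, Grp to -2.84, Calca to -1.61, Sstr1 to -1.43, Ramp1 to -0.87 and Hcrtr1 to 0.79, and all 5 passed again. For Npsr1 the scanner software had used a substitute value near background on all 4 Y+I arrays, and for Oprl1 on 2 of them. Some members that did not pass moved with normexp as well, such as Ntsr1 from -1.93 to -0.40, Nmbr from -0.62 to -0.06 and Hcrtr2 from -0.35 to 0.17.

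**Figure D3:**
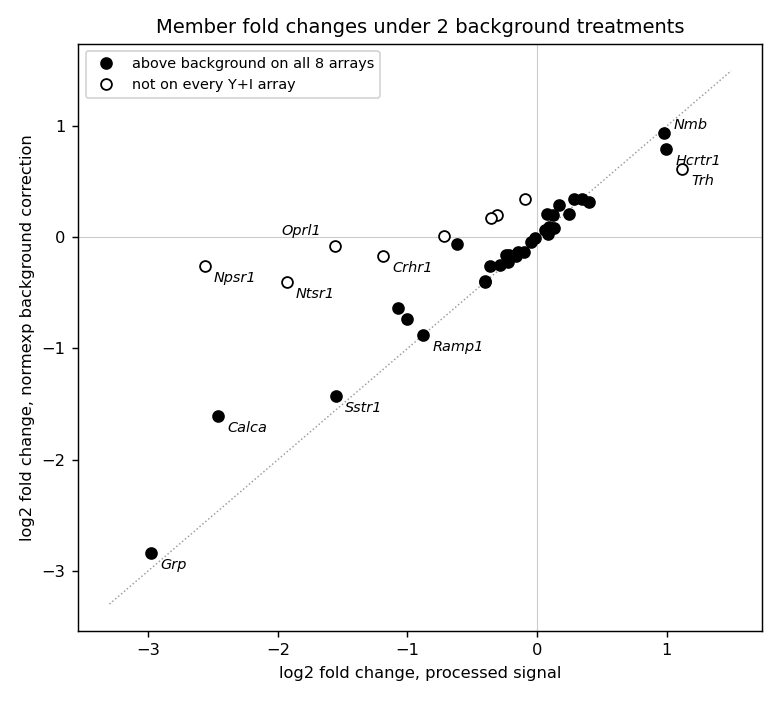
Log2 fold change (Y+I over vehicle) of the 41 tested members from the processed signal (horizontal axis) and after normexp background correction (vertical axis); the dotted line marks equal values and open circles mark members that were not well above background in all 4 Y+I rats. Grp, Sstr1, Ramp1 and Hcrtr1 lie near the line, and Npsr1, Ntsr1, Oprl1 and Crhr1 lie far above it.

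Among the peptides that did not pass, Adcyap1, Trh and Vgf had an unadjusted p under 0.05 beside Nmb. Adcyap1 encodes PACAP, a peptide of the stress and circadian systems, and had -3.92, -4.14, -3.92 and -3.34 in Y+I rats, against -2.13, -2.75, -3.38 and -2.77 in vehicle rats. Y+I rat 4 and vehicle rat 3 crossed by a small margin, and the log2 fold change of -1.07 ± 0.26 did not pass (adjusted p = 0.0842, and -0.63 with normexp). Its receptor genes stayed near 0, with log2 fold changes of 0.08 for Adcyap1r1 (adjusted p = 0.901), 0.06 for Vipr1 and -0.14 for Vipr2. Trh encodes thyrotropin-releasing hormone and had -5.45, -5.22, -5.48 and -5.00 in Y+I rats, against -5.68, -5.85, -7.04 and -7.06 in vehicle rats. The groups were separated, but vehicle rats split into a pair near the Y+I rats and a pair more than 1 unit below, and the log2 fold change of 1.12 ± 0.33 did not pass (adjusted p = 0.135, and 0.62 with normexp). Trh was well above background on 3 Y+I arrays although its values were higher there. Its receptor gene Trhr had a log2 fold change of -0.72 (95% interval -1.58 to 0.15, adjusted p = 0.415), which was 0.01 with normexp.

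Granins build the dense-core vesicle, and Vgf encodes a granin-like precursor that is induced by neurotrophins and activity. Vgf had 3.19, 3.12, 3.20 and 3.07 in Y+I rats, against 3.80, 3.54, 3.39 and 3.45 in vehicle rats. Y+I rats were tightly grouped below the lowest vehicle rat, yet the log2 fold change of -0.40 ± 0.11 did not pass (adjusted p = 0.111). Scg2, Chga and Chgb, the genes of secretogranin II and of chromogranins A and B, were bright and close to 0. Their log2 fold changes were -0.16 (95% interval -0.44 to 0.11), -0.10 (-0.35 to 0.15) and 0.09 (-0.14 to 0.32). All 3 intervals exclude a 1.5-fold change in either direction.

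The opioid precursor gene Pdyn, which encodes dynorphins of the dentate granule cells, averaged 1.47 ± 0.34 (SD) in Y+I rats and 1.87 ± 0.31 in vehicle rats (log2 fold change -0.40, adjusted p = 0.396). Oprd1 and Oprm1, the delta and mu opioid receptor genes, had 0.17 and -0.10 and did not pass. Neurotensin, encoded by Nts, averaged 0.98 ± 0.11 in Y+I rats and 0.58 ± 0.68 in vehicle rats (log2 fold change 0.40, adjusted p = 0.569). Vehicle rat 3 was the lowest, at -0.39, and without it the difference was 0.08. The neurotensin receptor gene Ntsr1 had -6.17, -7.50, -6.02 and -6.88 in Y+I rats, against -2.87, -5.44, -5.85 and -4.69 in vehicle rats. It was well above background on 1 Y+I array, and vehicle rat 1 stood far above the next. Its log2 fold change of -1.93 ± 0.62 did not pass (adjusted p = 0.16) and was -0.40 with normexp. Cckbr encodes the cholecystokinin receptor most common in brain and had -2.57, -3.23, -2.50 and -3.18 in Y+I rats, against -0.94, -2.01, -2.54 and -1.96 in vehicle rats. Vehicle rat 3 lay among the Y+I rats, and the log2 fold change of -1.01 ± 0.33 did not pass (adjusted p = 0.17). A second Cckbr probe gave -0.91.

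The remaining tested members had small differences. Gal, the galanin gene, averaged -0.38 ± 0.41 in Y+I rats and -0.36 ± 0.26 in vehicle rats, a log2 fold change of -0.02. Pthlh, the gene of parathyroid hormone-like peptide, had 0.12 (95% interval -0.22 to 0.47). Cartpt, the precursor gene of the CART peptides, had -0.22 with an interval from -2.35 to 1.91, because its level ranged from -4.99 to -2.35 in Y+I rats and from -6.38 to -1.74 in vehicle rats. Without vehicle rat 1 it was -1.16, and without vehicle rat 3 it was 0.38. The neuropeptide Y receptor genes Npy1r and Npy5r had -0.36 (adjusted p = 0.578) and 0.09 (adjusted p = 0.834). Avpr1a, a vasopressin receptor gene, had -0.31 (adjusted p = 0.646). Of the 16 families into which the members were sorted, 7 held a gene that passed.

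**Figure D4:**
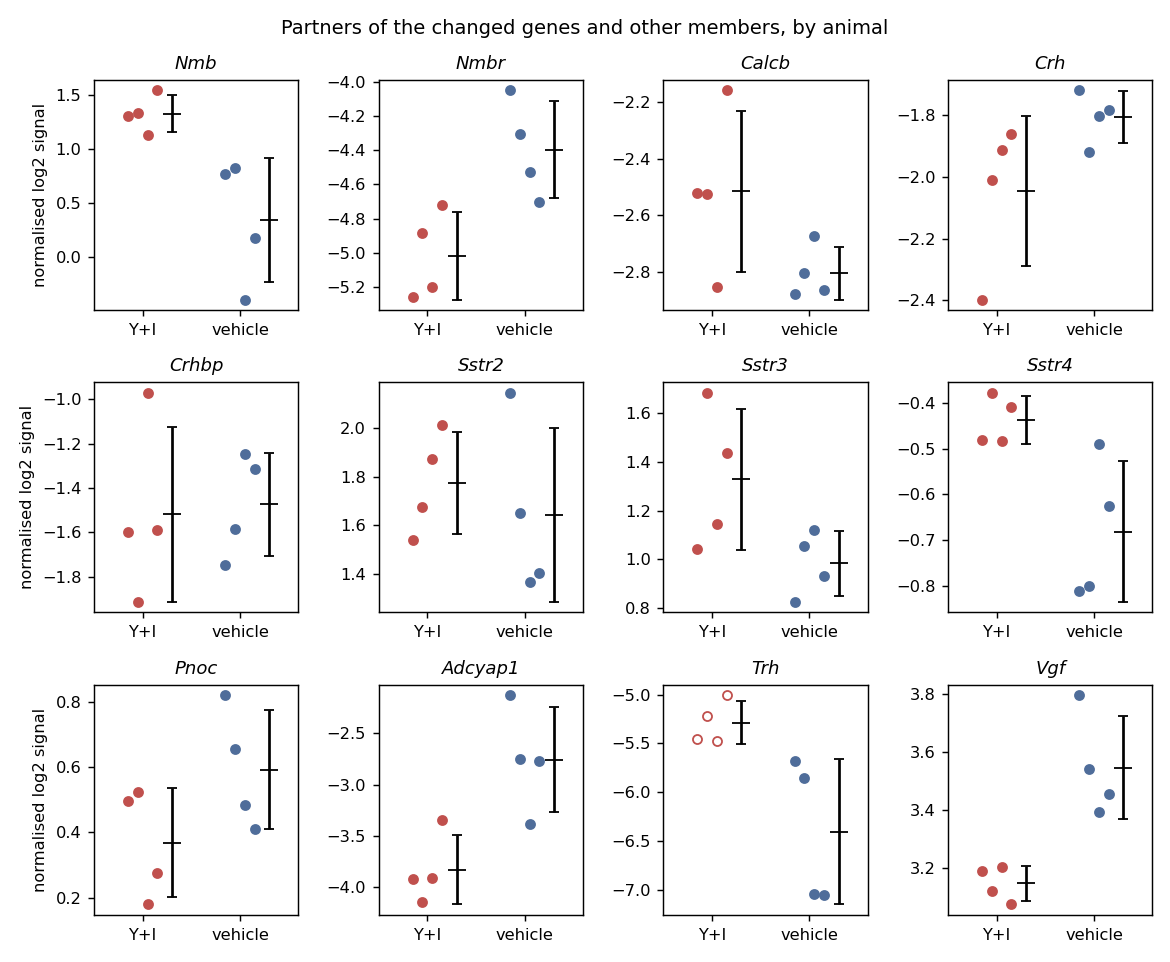
Normalised log2 signal (vertical axis, a separate scale in each panel) of 12 members that did not pass, by rat, with Y+I left and vehicle right and the mean ± SD beside each group; open circles mark groups not well above background on all 4 arrays. Nmb, Trh and Sstr4 are separated with Y+I higher, Nmbr and Vgf with Y+I lower, and the other 7 genes overlap.

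The promoters of the 5 members that passed and were well above background on all 8 arrays are shown because these genes carry the measured changes. Each sequence holds the 250 bases before the gene's start in RefSeq, build GRCr8, written in the direction of the gene. Of the 48 members 39 had an entry. Capitals mark TGACG or its reverse complement CGTCA, the core of the element bound by the factor CREB, searched on both strands. The palindrome TGACGTCA contains both of these and was searched too. The Calca stretch is chr1:178317530-178317779 (minus strand), Grp chr18:61658405-61658654 (plus strand), Sstr1 chr6:81567233-81567482 (plus strand), Hcrtr1 chr5:147770851-147771100 (minus strand) and Ramp1 chr9:99212866-99213115 (plus strand).
Grp: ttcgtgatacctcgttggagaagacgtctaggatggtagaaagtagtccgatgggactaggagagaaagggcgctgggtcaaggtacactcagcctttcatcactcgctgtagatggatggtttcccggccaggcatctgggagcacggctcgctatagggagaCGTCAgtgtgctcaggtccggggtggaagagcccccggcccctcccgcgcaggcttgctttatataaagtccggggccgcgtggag
Calca: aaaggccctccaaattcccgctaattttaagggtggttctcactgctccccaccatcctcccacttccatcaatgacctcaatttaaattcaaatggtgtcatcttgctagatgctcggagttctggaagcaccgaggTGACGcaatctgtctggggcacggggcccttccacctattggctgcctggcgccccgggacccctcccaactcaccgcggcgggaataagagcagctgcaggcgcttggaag
Sstr1: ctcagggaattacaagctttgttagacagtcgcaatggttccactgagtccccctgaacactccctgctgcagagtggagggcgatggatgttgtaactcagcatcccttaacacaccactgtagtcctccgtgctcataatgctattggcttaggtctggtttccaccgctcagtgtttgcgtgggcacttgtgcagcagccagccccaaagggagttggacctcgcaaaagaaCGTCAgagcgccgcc
Hcrtr1: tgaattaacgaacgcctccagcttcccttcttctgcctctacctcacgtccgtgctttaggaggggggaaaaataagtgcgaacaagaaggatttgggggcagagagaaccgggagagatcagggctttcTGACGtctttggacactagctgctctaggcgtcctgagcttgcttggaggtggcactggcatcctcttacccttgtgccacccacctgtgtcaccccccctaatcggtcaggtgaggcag
Ramp1: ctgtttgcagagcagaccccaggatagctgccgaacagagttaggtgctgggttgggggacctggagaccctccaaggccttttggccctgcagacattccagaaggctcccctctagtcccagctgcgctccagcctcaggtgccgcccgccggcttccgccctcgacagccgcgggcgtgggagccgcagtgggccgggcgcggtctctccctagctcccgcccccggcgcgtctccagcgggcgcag

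The short motif occurred 1 time each in the Grp, Calca, Sstr1 and Hcrtr1 stretches, at positions -86, -112, -15 and -120 counted from the start, and was not found in the Ramp1 stretch. It thus lay in genes that fell and in the gene that rose. The short motif was present in 11 of the 15 peptide genes and 8 of the 24 receptor genes that had an entry, beside 18.2% of all 33469 promoter entries. The palindrome was found in 4 members, Cartpt, Scg2, Vgf and Sstr2, beside 1.59% of all entries, and none of these 4 genes passed. A match of letters is a description of the sequence and not a binding site.

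Other genes of the same signalling systems were read from lists that do not hold the members. Of 33 tested genes among 43 other peptide precursors, 2 rose, 3 fell and 28 did not pass, with a median log2 fold change of -0.14 (0.11 with normexp). Adm, the gene of the vasodilator adrenomedullin, rose by 0.88 ± 0.10 log2 units (adjusted p = 0.0066), and Nppc, the gene of C-type natriuretic peptide, by 0.92 ± 0.14 (adjusted p = 0.0147). The endothelin genes Edn1 and Edn3 fell by 1.5 ± 0.19 and 0.86 ± 0.14 (adjusted p = 0.00872 and 0.0222), and Spx, the spexin gene, by 0.64 ± 0.13 (adjusted p = 0.0412). Edn1 and Spx were well above background in 1 Y+I rat each. With normexp Edn1 and Edn3 had -0.12 and -0.25, Spx turned to 0.19, and none of these 3 passed, whereas Adm and Nppc passed again. Without 1 rat, Adm and Edn1 passed in 8 of 8 fits, Nppc in 6 (adjusted p up to 0.0614), Edn3 in 5 (up to 0.0858, both without vehicle rat 4) and Spx in 1 (up to 0.124, without vehicle rat 2). The peptide genes of hippocampal interneurons in that list, picked out after their values were seen, did not pass and had both signs. Penk had -0.66 (adjusted p = 0.0619), Vip -0.51 (0.0742), Sst -0.29 (0.223), Cck -0.23 (0.58) and Npy 0.26 (0.359).

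Of 31 tested genes among 44 other peptide receptors, 0 rose, 2 fell and 29 did not pass, with a median of -0.24 (0.11 with normexp). Rxfp1, a relaxin receptor gene, fell by 1.31 ± 0.15 log2 units (adjusted p = 0.00651). It passed again with normexp, at -0.56 (adjusted p = 0.0402), and in all 8 fits without 1 rat. Qrfpr, the receptor gene for the peptide QRFP, fell by 1.43 ± 0.25 (adjusted p = 0.0258), was well above background in 1 Y+I rat and had -0.02 with normexp. It passed in 2 of the 8 fits without 1 rat (adjusted p up to 0.0812, without vehicle rat 4). Mchr1, a receptor gene for melanin-concentrating hormone, had -0.36 and did not pass (adjusted p = 0.144). Of 19 tested genes among 20 for peptide processing and dense-core vesicles, none passed in limma, and 2 had an unadjusted p under 0.05. These were the vesicle priming gene Cadps2 (log2 fold change -0.52, adjusted p = 0.113) and the convertase gene Pcsk1 (0.42, adjusted p = 0.244), followed by the endothelin-converting enzyme gene Ece2 (-0.44, adjusted p = 0.348). The median of that list was -0.01 (0.03 with normexp). For the machinery that cuts and stores peptides this test thus made no call.

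Markers of the tissue and of its neighbours moved with the groups and stand beside the results above. Hippocampal neuron markers had 17 of 18 genes tested and none past the threshold in limma, with 6 higher and 1 lower at an unadjusted p under 0.05. Their summed level, as log2 of the summed normalised signal, was 6.54 to 6.68 in Y+I rats and 5.94 to 6.27 in vehicle rats, without overlap. The brightest genes weigh most in such a sum, here Fibcd1 and Bok, so it does not describe every gene of a list. Neocortex and retrohippocampal markers had 16 of 19 tested, of which Nxph4, Rprm and Cplx3 fell, and summed to 1.99 to 2.26 in Y+I rats and 2.42 to 2.68 in vehicle rats. That sum was weighted to Nr4a2, with a mean of 1.34 in Y+I rats and 1.76 in vehicle rats, and the 3 genes that fell were much dimmer. Thalamus, habenula and striatum markers had 15 of 20 tested, of which Drd2 and Slc17a6 fell, and summed to 1.72 to 1.91 in Y+I rats and 2.36 to 2.59 in vehicle rats. Both sums were lower in Y+I rats without overlap, and single genes of these lists had both signs. Grp, Calca, Sstr1 and Ramp1 were lower in Y+I rats too, and Hcrtr1 was higher. Of the neocortex and retrohippocampal genes 14 were below 0 and 2 above, with 8 lower and 1 higher at an unadjusted p under 0.05. Of the thalamus, habenula and striatum genes 9 were below 0 and 6 above, with 7 lower and 1 higher (Lhx9, at 0.94, with groups that did not overlap). The median of that list was -0.60, and 0.04 with normexp. Nxph4 and Rprm, and Drd1 of the thalamus, habenula and striatum list, were not well above background in any Y+I rat. With normexp Nxph4, Rprm and Cplx3 did not pass (adjusted p = 0.458, 0.0769 and 0.0801). Drd2 and Slc17a6 passed again there, with log2 fold changes of -0.42 and -1.11 (adjusted p = 0.047 and 0.0106). Without 1 rat Drd2 and Slc17a6 each passed in 2 of the 8 fits (adjusted p up to 0.0843 and 0.0967, without vehicle rat 4), and Cplx3 in 3 (up to 0.0985, without vehicle rat 2).

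Interneuron markers had 13 of 14 tested, of which Htr3a fell, and summed to 6.52 to 6.87 in Y+I rats and 6.77 to 7.09 in vehicle rats, with overlap. At an unadjusted p under 0.05, 6 of the 13 were lower and 0 higher, beside 9.16% of all features lower. In those 6 (Htr3a, Calb2, Vip, Gad1, Slc32a1 and Sst) the groups did not overlap, beside 6.65% of all features separated as lower. Of the 13 genes 9 were below 0 and 4 above, among the latter Gad2 at 0.38 (adjusted p = 0.353) and Npy at 0.26 (adjusted p = 0.359). Htr3a did not pass without Y+I rats 2 and 3 (adjusted p = 0.0578) and passed with normexp (adjusted p = 0.00277). Choroid plexus and meningeal markers had 11 of 14 tested, of which Slc6a13 and Col1a1 fell, and summed to 1.37 to 2.12 in Y+I rats and 1.94 to 3.01 in vehicle rats, with overlap. Of these, 6 were lower and 1 higher (Folr1, at 0.88, adjusted p = 0.308) at an unadjusted p under 0.05. Ttr had -0.33, with an SD of 1.47 in Y+I rats and 2.41 in vehicle rats. Slc6a13 and Col1a1 passed again with normexp (adjusted p = 0.029 and 0.00486), and Slc6a13 did not pass without Y+I rats 2 and 3 (adjusted p = 0.0641). The part of these markers in the peptide and receptor results was not tested.

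**Figure D5:**
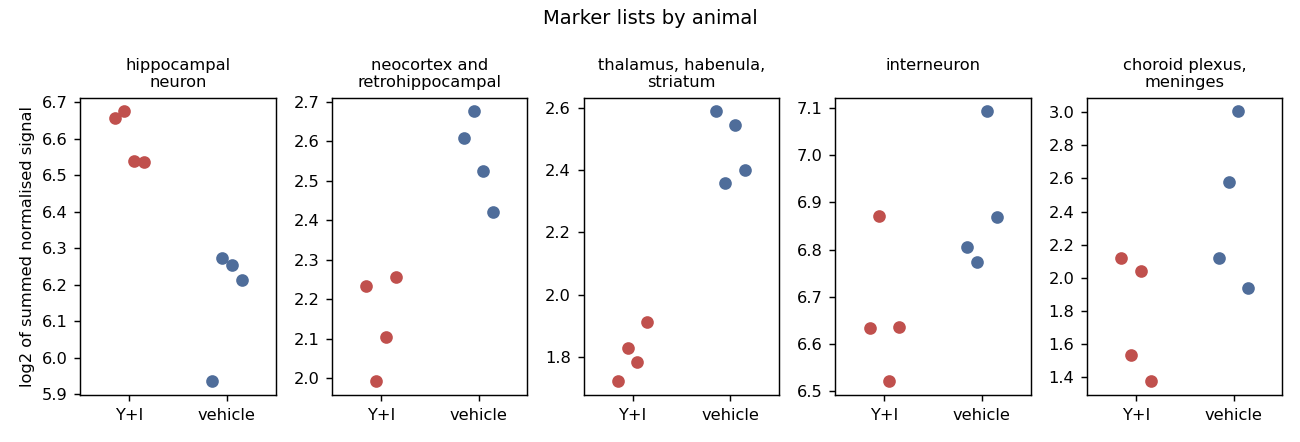
Summed level of 5 marker lists (vertical axis, log2 of the summed normalised signal, a separate scale in each panel) by rat, with Y+I left and vehicle right. Hippocampal neuron markers are higher in all 4 Y+I rats, neocortex and thalamus, habenula and striatum markers are lower in all 4, and interneuron and choroid plexus and meningeal markers overlap between groups.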

How the data were processed

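Per the labels' protocols, total RNA of 8 hippocampi was copied into Cy3-labelled cRNA for 1-colour Agilent rat arrays. Group and animal number come from each sample's title, and the rats of a group are separate animals per the labels. The deposited scanner files give each spot's mean intensity, its local background intensity and its processed intensity, made with Agilent Feature Extraction 10.5.1.1 per the file headers. A value table deposited by the authors holds log2 values of these arrays. Against the scanner values its columns had slopes of 0.994 to 0.999 and r of at least 0.999, with medians from -3.51 to -3.35. It lay 0.587 to 0.667 above the values used here, so its centring is unknown, and it served as an alternative.

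The values used were log2 of the processed intensity minus the array's 75th percentile over 58717 noncontrol spots. No spot was saturated. Outlier spots were left out and spots of a probe averaged. A probe needed to be well above background in all 4 rats of at least 1 group, on at least 50% of its spots, with at least 3 values in each group, which kept 21370 of 30367 probes. Gene symbols were brought up to date with RefSeq, assembly GRCr8 (18004 probes by accession, 2320 by symbol, 626 by synonym, 1999 keeping the file's name, 7418 unnamed). The brightest kept probe stood for a gene, giving 18803 features. The 48 members have 66 probes. Near background the processed signal is a substitute value, so the fold change of a dim gene is uncertain in size.

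The comparison used limma 3.58.1 (R 4.3.3), functions lmFit and eBayes. Tests were two-sided, adjusted over all features by the Benjamini-Hochberg method, at a threshold of 0.05. The members and the 8 gene lists were chosen with earlier results of these data known, so they are not independent evidence. Values are given for each rat for members past the threshold, for their ligand or receptor partners, and for members at an unadjusted p under 0.05. Genes outside the set are named if they passed or were among the 3 of smallest p in a list of other peptide, receptor or processing genes; the interneuron peptide genes and the single markers that did not pass were picked after their values were seen. Alternatives were normexp background correction with an offset of 50, quantile normalisation, the value table, other filters, the mean of probes, a block for animal number, another variance model, and rats left out; every kept probe as a feature and array weights were added after the data were seen. The procedure was tested on simulated data. The labels do not say that animal numbers pair rats across groups, and the numbers were not taken to pair them. Same-numbered rats of both groups did not deviate together (r = 0.046, -0.112, -0.038 and 0.037), which cannot exclude a pairing. Python 3.11.15 and matplotlib 3.10.9 drew the figures.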

Additional observations from a re-analysis of the deposited data

Results flagged for a closer look

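In 2 of the 82 groups of 4 rats examined, that is each tested member in each group, 1 rat lay far from the others relative to the range of its group; chance alone gives about 1 in 20. Grp in vehicle rat 2 was 1.48, against 2.04 to 2.12 in the other vehicle rats, and lay above all Y+I rats. Crhr1 in vehicle rat 1 was -4.23, against -5.11 to -4.98 in the other vehicle rats. Without vehicle rat 2 the log2 fold change of Grp was -3.12 (adjusted p = 0.00312). Without vehicle rat 1 that of Crhr1 was -0.99 and did not pass (adjusted p = 0.075).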

How the results depend on the processing

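The count of all features called, 439 (139 higher, 300 lower), was 3887 with no filter on background (3361 higher, 526 lower), 144 with a block for animal number (replicate block), 164 without Y+I rats 2 and 3, the pair with the fewest spots above background, and 121 to 355 without 1 rat. The split turned to 400 higher and 202 lower with normexp, where the median of all features was 0.09 instead of -0.02, and to 161 higher and 211 lower with the filter on all 8 arrays. Of the peptide genes, Grp and Calca passed in all alternatives run. The peptide count was 2 to 2 without 1 rat and 4 with no filter, when Nmb and Adcyap1 passed too. The receptor count of 6 was 3 with normexp, 3 with the filter on all 8 arrays, 3 with the replicate block, 2 without Y+I rats 2 and 3 and 3 to 5 without 1 rat. With no filter 14.5% of all features were called, with the block 0.766% and without those rats 0.872%. The block ended the calls of Ramp1 (adjusted p = 0.116), Hcrtr1 (0.0914) and Crhr1 (0.0592), and the labels do not say whether animal numbers pair the rats. Leaving out Y+I rats 2 and 3 ended those of Ramp1 (0.0968), Hcrtr1 (0.0711), Crhr1 (0.135) and Oprl1 (0.0621). The value table ended that of Crhr1 (0.103). The called members kept their sign in all alternatives run, and 11 of the 33 others changed sign in at least 1. With 4 arrays a group, and dim receptor probes near background, small changes were not measurable.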

Other observations

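Vehicle rat 1 had the highest level among the vehicle rats for 20 of the 41 tested members, beside 26.1% of all features, and Y+I rat 4 the highest among the Y+I rats for 18 of the 41, beside 31.0% of all features. Between rats, 24 of the 41 members had the larger SD in the Y+I group, beside 14635 of the 18803 features.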
